A study of Mus musculus with 6 samples.

Results

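Cajal-Retzius cells were followed through 10 marker genes other than Reln, in RNA from primary mouse cortical cultures with or without knockdown of Neurod2. The markers were Calb2, Ndnf, Nhlh2, Cacna2d2, Zic1, Trp73, Lhx1, Lhx5, Ebf2 and Ebf3. A row of the deposited table was taken for a marker where its mm10 locus overlapped the gene's annotated span by at least 0.5 of their union, whether or not the authors had tested it. This gave 13 of the 32357 rows, 1 for each of 8 markers, 2 for Ebf3 and 3 for Ebf2. Rows were matched by position alone, without regard to their values. The markers themselves were chosen with earlier results of these data known, so the counts and ranks below are descriptions of a list that was not chosen blind. The knockdown group held 4 libraries, 2 with shNeurod2-1 and 2 with shNeurod2-2, and the reference was the NS group of 2 libraries with a non-silencing shRNA. All cultures came from cortex of Balb/c mouse embryos at E14.5, carried their shRNA in a pSuper-neo-GFP plasmid introduced by nucleofection, and were plated in medium with serum. The sample labels give 4 days in vitro and the paper's methods 5. The sources do not say that transfected cells were sorted, so the RNA is that of the whole culture. They also do not say whether libraries of a group came from separate cultures.

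Each locus had 1 value per group, the authors' pooled FPKM (sequenced fragments divided by transcript length and library size). The libraries of a group, and the 2 shRNAs, could therefore not be separated, no SD or test between libraries could be made, and the folds below are descriptions with no replicate check. Neurod2 itself was at 60.3 FPKM in the knockdown group and 104.8 FPKM in the NS group, 0.575-fold. Low loci with a single transcript carried FPKM values in steps, which placed the depth at about 12700000 reads per knockdown library and 13500000 per NS library. These steps were used below to translate FPKM into an approximate number of reads.

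Cajal-Retzius cells are early-born, reelin-secreting neurons of the marginal zone, the outermost layer of the developing cortex. They arise outside most of the cortical sheet, at the cortical hem, the septum and the pallial border with the subpallium, and migrate over the surface of the cortex. Their reelin guides the radial migration of later neurons. NEUROD2, the factor knocked down here, is a basic helix-loop-helix protein of excitatory cortical neurons, and proteins of this family bind E-boxes, short DNA elements of the form CANNTG. None of the markers is particular to Cajal-Retzius cells: calretinin and Ndnf also mark some interneurons, and Zic1, Lhx1, Lhx5 and the Ebf genes are used in other parts of the developing nervous system.

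RefSeq promoter windows (GRCm38.p6, 250 bases before to 50 after the transcription start) were held for 6 of the 10 markers, Trp73 with 2 starts. The windows of Calb2, Ndnf, Lhx5 and Ebf2 are not analysed here. Of the 7 windows, 4 held at least 1 CANNTG, against 72.3% of all 32851 promoter windows of the same length. CANNTG reads the same on both strands. The form CAGATG, or CATCTG on the other strand, was in 1 of the 7 and in 17.2% of all windows, and CAGCTG was in 2 of the 7 and in 16.3% of all. The windows of Lhx1, Ebf3 and Cacna2d2 held no CANNTG. The sequences below are shown because they carry the E-boxes before the start of the markers whose windows held any, Nhlh2 with its whole stretch upstream of annotated exons and the others with the E-box and 9 bases on either side. They read 5′ to 3′ on the gene's strand, and capitals mark CANNTG.
Nhlh2, chr3:102009895-102010075, plus strand: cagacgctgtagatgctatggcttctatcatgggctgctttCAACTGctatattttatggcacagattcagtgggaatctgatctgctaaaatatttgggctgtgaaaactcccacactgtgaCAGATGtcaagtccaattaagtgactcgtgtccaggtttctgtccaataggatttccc
Trp73, start inside the gene, chr4:154097273-154097296, minus strand: ctgcatcccCACCTGctccccctg
Trp73, start at the upstream end, chr4:154140048-154140071, minus strand: gggcagagcCAGCTGgggaggcgg
Zic1, chr9:91365852-91365875, minus strand: cgtcggtcgCACGTGacccctccc
In the Nhlh2 window the CAACTG lay at -209 and the CAGATG at -127 from the start, and further matches, CAATTG at 9 and CAGCTG at 44, followed the start. The inner Trp73 start had its CACCTG at -114, on bases that GENCODE also counts as an exon of the antisense gene Trp73os, and a CAGTTG at 15. The upstream Trp73 start had its CAGCTG at -187, inside an exon of a longer Trp73 transcript in GENCODE. Zic1 had a CACGTG at -98. These are matches of letters, and binding was not measured in these files.

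The 3 most abundant markers, Calb2, Nhlh2 and Ndnf, were each over 1.5-fold higher in the knockdown group. Calb2, which encodes the calcium-binding protein calretinin, is annotated at chr8:110137502-110168210 on the minus strand, with 11 exons in its longest coding transcript. It had 6.59 FPKM in the knockdown group and 3.54 FPKM in the NS group, a difference of 3.05 FPKM and a fold of 1.86 (log2 0.90). That was the highest level of any marker in either group. By the read steps the values stood for at least about 360 reads in knockdown and 102 in NS, and the 95% counting interval of the fold ran from 1.49 to 2.35 (exact binomial, counting error only). The spread between libraries, which is not known, would widen every such interval.

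Nhlh2, a basic helix-loop-helix factor of young neurons, lies at chr3:102010076-102015492 on the plus strand, with 2 exons. It had 4.34 FPKM in the knockdown group and 2.48 FPKM in the NS group, 1.75-fold (log2 0.81), with a counting interval of 1.47 to 2.09. Ndnf, which encodes a secreted neurotrophic protein, lies at chr6:65671590-65712326 on the plus strand, with 4 exons. It had 4.09 FPKM in the knockdown group and 2.49 FPKM in the NS group, 1.64-fold (log2 0.72), with a counting interval of 1.45 to 1.87. Nhlh2 and Ndnf were nearly level with each other in NS and changed places in the order of markers in knockdown, a gap that their unknown spread does not allow to be read as a difference.

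**Figure D1:**
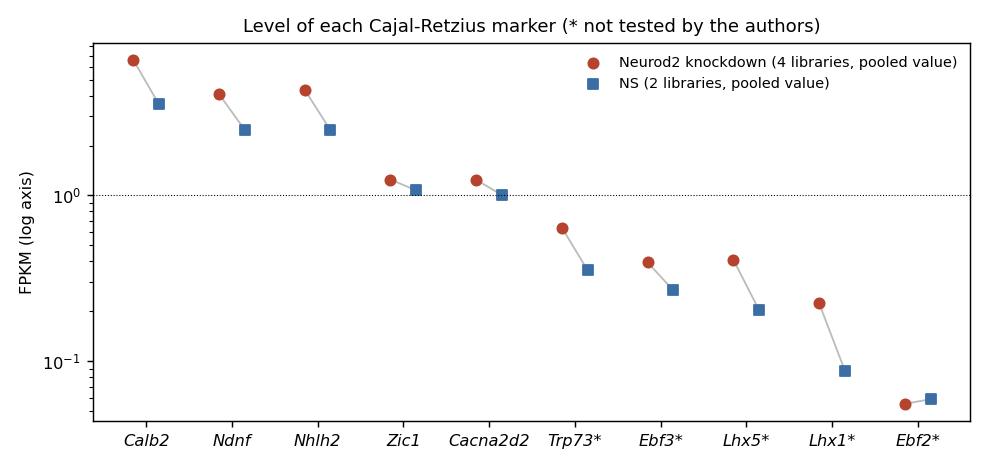
FPKM (log axis) of each marker in the Neurod2 knockdown group (circles, left) and the NS group (squares, right), 1 pooled value per group with no error bar, ordered by the NS value. Every circle except that of Ebf2 lies above its square, and the dotted line marks 1 FPKM.

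Zic1 and Cacna2d2 were near 1 FPKM in both groups and stayed under the 1.5-fold mark. Cacna2d2 encodes an auxiliary alpha2delta subunit of voltage-gated calcium channels and lies at chr9:107399612-107529343 on the plus strand. It had 1.24 FPKM in the knockdown group and 1.01 FPKM in the NS group, 1.23-fold (log2 0.30), and its counting interval of 0.964 to 1.59 includes 1. Zic1, a zinc finger factor of the septum and dorsal midline, lies at chr9:91358058-91365810 on the minus strand. It had 1.246 FPKM in the knockdown group and 1.073 FPKM in the NS group, 1.16-fold (log2 0.22), with a counting interval of 0.889 to 1.53. Zic1 shares exon bases with Zic4, whose own locus had 0.114 FPKM in knockdown and 0.149 FPKM in NS, and since the strandedness of the libraries is not given in the sources used here, reads of the shared bases cannot be assigned.

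Over the 5 markers the authors had tested, 3 were over 1.5-fold higher in knockdown, none was over 1.5-fold lower and all 5 were above 1-fold. Of the 12601 tested loci with a mean of at least 1 FPKM, 1.35% were over 1.5-fold higher and 2.02% over 1.5-fold lower. Among tested loci of 1 to 10 FPKM, the range in which all 5 lie, 1.75% were over 1.5-fold higher and 47% were above 1-fold, and at 1 FPKM or more 41.6% were above 1-fold. The median log2 fold of the 5 was 0.72, against a median of -0.03 and quartiles of -0.13 and 0.07 over the 12601 loci. Of those loci, 99.3% had a smaller log2 fold than Calb2, 99.3% a smaller one than Nhlh2 and 99.1% a smaller one than Ndnf. The share was 95.4% for Cacna2d2 and 92.2% for Zic1.

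**Figure D2:**
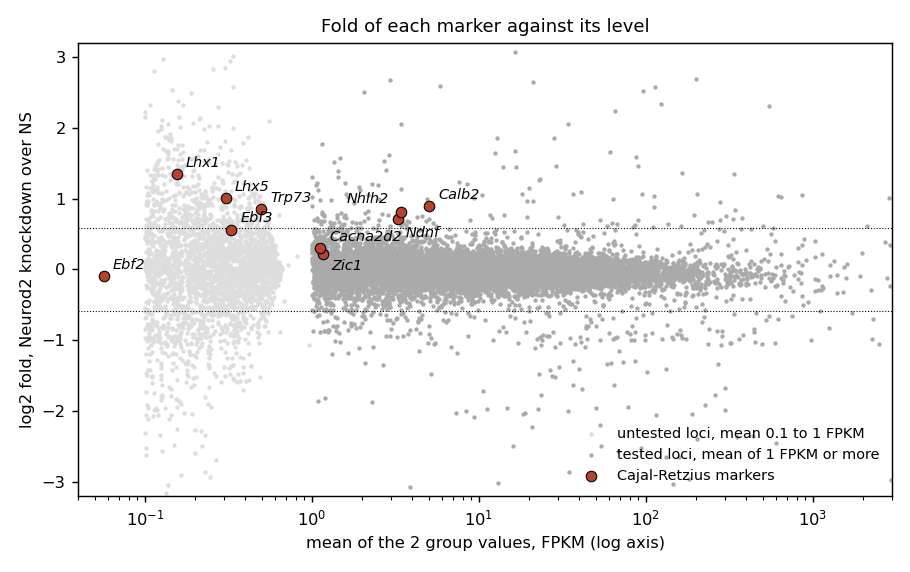
Log2 fold, Neurod2 knockdown over NS, against the mean of the 2 group values in FPKM (log axis) for the 10 markers (red) and for all tested loci at 1 FPKM or more (dark grey) and untested loci at 0.1 to 1 FPKM (light grey), with loci beyond the axes not drawn. Dotted lines mark 1.5-fold, and Calb2, Nhlh2 and Ndnf sit above the dark band while Trp73, Lhx5, Lhx1 and Ebf3 sit within the much wider light band.

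The other 5 markers, all transcription factors, were under 1 FPKM in both groups and had not been tested by the authors. Trp73, the p53 family member on which Cajal-Retzius cells of the hem depend, lies at chr4:154056253-154140208 on the minus strand. It had 0.638 FPKM in the knockdown group and 0.353 FPKM in the NS group, 1.81-fold (log2 0.86). Depending on the transcript, this stood for about 20 to 164 reads in knockdown and 6 to 48 in NS, and the interval for the shortest transcript was 0.683 to 5.37. Trp73 shares exon bases with its antisense gene Trp73os, so the reads behind the value may belong to either.

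Lhx5 and Lhx1 encode closely related LIM homeodomain factors found in Cajal-Retzius cells and in their sources at the hem and eminentia. Lhx5, at chr5:120431699-120441223 on the plus strand, had 0.408 FPKM in the knockdown group and 0.203 FPKM in the NS group, 2.01-fold (log2 1.01). About 52 reads in knockdown and 14 in NS gave a counting interval of 1.07 to 3.84. Lhx1, at chr11:84518284-84525535 on the minus strand, had 0.223 FPKM in the knockdown group and 0.0876 FPKM in the NS group, 2.55-fold (log2 1.35). That was the largest fold among the 10 markers, and it rested on about 31 reads in knockdown and 6 in NS, with an interval of 1.12 to 8.01. The lower bounds of both intervals are close to 1 before any spread between libraries is counted. Lhx5 shares exon bases with the gene Gm27199.

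Ebf3 and Ebf2 belong to the early B cell factor family of helix-loop-helix proteins. Ebf3, at chr7:137193673-137314445 on the minus strand, had 0.394 FPKM in the knockdown group and 0.267 FPKM in the NS group in its main row, 1.48-fold (log2 0.56), just under the mark of 1.5. A further row at the same position had 0.00645 FPKM in knockdown and 0.0127 FPKM in NS, values below those of a single read of a 1-kb transcript. Ebf2, at chr14:67233292-67430918 on the plus strand, was the only marker not higher in knockdown, with 0.0552 FPKM in the knockdown group and 0.0587 FPKM in the NS group, 0.940-fold (log2 -0.09). It rested on about 8 to 15 reads in knockdown and 4 to 8 in NS, and its other 2 rows are listed at 0 in both groups. Ebf2 had the lowest level of the 10 markers in both groups. Exon bases are also shared by Ebf3 with Gm45278, by Ebf2 with Gm10860 and by Cacna2d2 with Gm17141.

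Of these 5 untested markers, 3 were over 1.5-fold higher in knockdown. Low loci scatter widely, and of 2758 untested loci with a mean of 0.1 to 1 FPKM, 17.7% were over 1.5-fold higher and 15.5% over 1.5-fold lower. Lhx1 had a larger log2 fold than 96.2% of these loci, Lhx5 than 92.6%, Trp73 than 89.8%, Ebf3 than 81.4% and Ebf2 than 40.8%, although the mean of Ebf2, 0.0570 FPKM, lies below their range. At a 2-fold mark, which 7.43% of these loci passed on the higher side, Lhx5 and Lhx1 were still counted. No tested marker passed 2-fold, a mark that 0.571% of tested loci at 1 FPKM or more passed on the higher side.

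**Figure D3:**
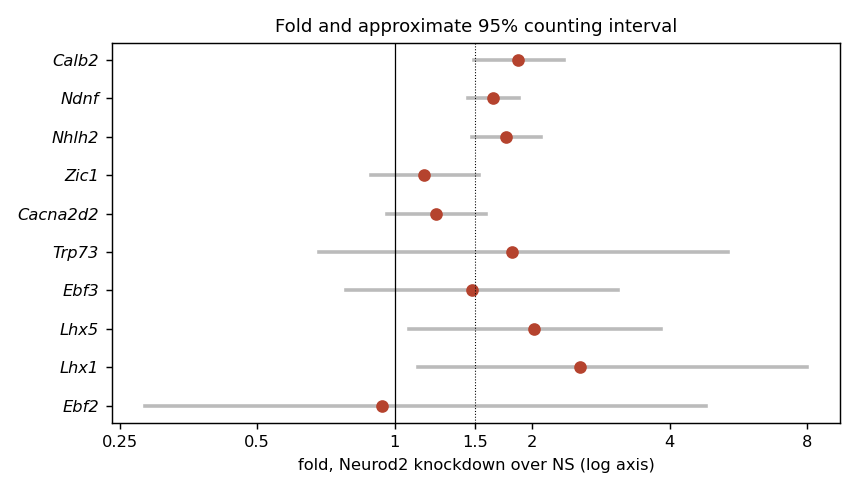
Fold of each marker, Neurod2 knockdown over NS (points, log axis), with the approximate 95% exact counting interval (bars) from the estimated reads behind the shortest coding transcript, markers in order of their NS level from the top. The bars of Calb2, Ndnf, Nhlh2, Lhx5 and Lhx1 lie above 1 (solid line), those of the other 5 cross it, and the dotted line marks 1.5-fold.

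Taking the row with the highest mean for each marker, 9 of the 10 were higher in knockdown and 6 were over 1.5-fold higher. These counts join 5 tested markers, of which 3 passed 1.5-fold beside 1.35% of tested loci, and 5 untested ones, of which 3 passed beside 17.7% of untested loci. Of the untested loci at 0.1 to 1 FPKM, 51.8% were above 1-fold. The markers' median log2 fold was 0.76, a fold of 1.70. Summed over the 10, the level was 19.2 FPKM in the knockdown group and 11.6 FPKM in the NS group, 1.66-fold. The 7 transcription factors alone gave 7.30 FPKM in knockdown and 4.52 FPKM in NS, 1.62-fold, and the 3 others 11.9 FPKM in knockdown and 7.04 FPKM in NS, 1.69-fold. In whole cultures, more cells of a type and more RNA per cell cannot be told apart. Reln had 24.3 FPKM in the knockdown group and 11.7 FPKM in the NS group, 2.08-fold, so its fold exceeded that of every marker except Lhx1.

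Other genes of Cajal-Retzius cells and of the regions that make them were set beside the 10 markers. Of 28 listed, 27 had a locus and 12 of these had been tested. Among the 12, Reln was the only one over 1.5-fold higher, against 2.09% of all tested loci, none was over 1.5-fold lower, and 2 were above 1-fold, where 42.2% of all tested loci were, with a median log2 fold of -0.10. Tbr1, a T-box factor of Cajal-Retzius and deep-layer neurons, had 34.3 FPKM in knockdown and 35.8 FPKM in NS. Eomes, a T-box factor of intermediate progenitors, had 16.1 FPKM in knockdown and 21.2 FPKM in NS. Cxcr4, the chemokine receptor that holds Cajal-Retzius cells under the meninges, had 7.35 FPKM in knockdown and 8.20 FPKM in NS. Wnt5a, a signal of the hem, had 1.39 FPKM in knockdown and 1.53 FPKM in NS, and the hem signal Wnt3a had 0.134 FPKM in knockdown and 0.148 FPKM in NS. Of 14 untested genes of this list with both values above 0, 6 were over 1.5-fold higher, namely Car10, Ebf1, Lhx9, Rspo1, Bmp6 and Ttr, and 1, Eya2, was over 1.5-fold lower, beside 17.7% and 15.5% of untested loci at 0.1 to 1 FPKM. Ebf1 and Ttr had a mean under 0.1 FPKM. Car10 had 0.409 FPKM in knockdown and 0.170 FPKM in NS, and Eya2 had 0.0908 FPKM in knockdown and 0.286 FPKM in NS.

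The genes that hold the cortical fate against the hem were nearly level between the groups. All 8 with a locus had been tested, and their median log2 fold was -0.08. None of the 8 passed 1.5-fold in either direction, where 2.09% of all tested loci were over 1.5-fold higher and 2.43% over 1.5-fold lower. The selector Lhx2 had 84.2 FPKM in knockdown and 90.4 FPKM in NS, and Dmrta2 had 10.5 FPKM in knockdown and 12.3 FPKM in NS. Of 14 listed markers of excitatory cortical neurons, 13 had a locus, and all 13 had been tested. Neurod2, the target of the shRNAs, was the only one past 1.5-fold, on the lower side. Of tested loci at 1 FPKM or more, 2.02% were over 1.5-fold lower and 1.35% over 1.5-fold higher. The median log2 fold of these 13 markers was -0.02.

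The paralogs of the markers, not all of them close relatives, gave a mixed picture. Of 18 paralogs with a locus, 10 had been tested, and 2 of these were over 1.5-fold higher, against 2.09% of all tested loci. These were Calb1, which encodes calbindin, with 2.01 FPKM in knockdown and 0.703 FPKM in NS (2.86-fold), and the interneuron factor Lhx6, with 1.05 FPKM in knockdown and 0.666 FPKM in NS (1.57-fold). Nhlh1, the nearest relative of Nhlh2, had 1.10 FPKM in knockdown and 0.889 FPKM in NS, 1.24-fold. Zic2 had 5.11 FPKM in knockdown and 5.24 FPKM in NS, and Zic5 had 1.06 FPKM in knockdown and 1.07 FPKM in NS. Cacna2d1 had 52.3 FPKM in knockdown and 42.3 FPKM in NS, 1.24-fold, and Cacna2d3 had 5.71 FPKM in knockdown and 6.04 FPKM in NS. Trp53 had 17.1 FPKM in knockdown and 18.1 FPKM in NS, Trp63 had 0.0649 FPKM in knockdown and 0.0332 FPKM in NS, and Ebf4 had 1.91 FPKM in knockdown and 2.24 FPKM in NS. The paralogs Pvalb, Cacna2d4, Zic4, Lhx8, Lhx9 and Ebf1 were untested and under 0.5 FPKM in both groups, and Lhx2 is given above. Of the 6 untested paralogs with both values above 0, 3 were over 1.5-fold higher, Ebf1 (2.35-fold), Trp63 (1.95-fold) and Lhx9 (1.69-fold), and 0 over 1.5-fold lower. Among untested loci at 0.1 to 1 FPKM, 17.7% were over 1.5-fold higher and 15.5% over 1.5-fold lower. The means of Ebf1 and Trp63, 0.0837 and 0.0491 FPKM, lie below that range. Ebf1 and Lhx9 were already counted among the other genes of Cajal-Retzius cells and their regions.

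Interneurons share Calb2 and Ndnf with Cajal-Retzius cells, and their markers were therefore set beside the result. Of 26 listed, 19 had a locus and 13 had been tested. Of the 13, 5 were above 1-fold and 8 below it, where 42.2% of all tested loci were above. Sst and Lhx6 were over 1.5-fold higher, and Sp8 and Dlx5 over 1.5-fold lower. Of all tested loci, 2.09% were over 1.5-fold higher and 2.43% over 1.5-fold lower. The median log2 fold of the 13 was -0.18. Among 3 untested genes with both values above 0, 3 were higher in knockdown and 0 lower. Of untested loci at 0.1 to 1 FPKM, 51.8% were above 1-fold. The 3 were Lamp5 (1.42-fold), Adarb2 (1.38-fold) and Htr3a (1.17-fold), all short of 1.5-fold, a mark that 17.7% of untested loci passed on the higher side. Somatostatin (Sst) had 6.55 FPKM in knockdown and 3.29 FPKM in NS, and Sp8, a factor of calretinin interneurons of the caudal eminence, had 3.47 FPKM in knockdown and 6.53 FPKM in NS. Gad2, which makes GABA, had 2.18 FPKM in knockdown and 2.49 FPKM in NS. The summed level of the 19 was 62.8 FPKM in knockdown and 72.2 FPKM in NS. Most of this gap was in Cck, which encodes the peptide cholecystokinin and had 18.5 FPKM in knockdown and 24.98 FPKM in NS. The progenitor factor Nkx2-1 was at 0.0270 FPKM in knockdown and listed at 0 in NS, Lhx8 was at 0.0197 FPKM in knockdown and listed at 0 in NS, and Vip was listed at 0 in knockdown and at 0.0250 FPKM in NS. The part of interneurons in the levels of Calb2 and Ndnf was not tested.

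Some meningeal and mural markers were higher in knockdown, as the Cajal-Retzius markers were, and others were not. Cajal-Retzius cells lie directly under the meninges, which can come along when cortex is dissected. Of 16 listed, 15 had a locus and 8 had been tested, and 5 of the 8 were over 1.5-fold higher in knockdown, against 2.09% of all tested loci, with a median log2 fold of 1.32. Of these 5, 4 had a mean under 1 FPKM, and among the 4 tested genes at 1 FPKM or more, 1 was over 1.5-fold higher and the median log2 fold was 0.09. The collagen genes Col1a1 and Col3a1 had 0.975 and 0.765 FPKM in knockdown, against 0.125 and 0.171 FPKM in NS. Postn, Acta2 and Thbs1 had 0.834, 1.28 and 3.38 FPKM in knockdown, against 0.262, 0.409 and 1.70 FPKM in NS. The summed level of the 15 was 13.97 FPKM in knockdown and 8.99 FPKM in NS. Without these 5 genes, a choice made after their values were seen, it was 6.74 FPKM in knockdown and 6.33 FPKM in NS. Pdgfrb, a receptor of mural cells, had 1.38 FPKM in knockdown and 1.56 FPKM in NS. Lum had 0.138 FPKM in knockdown and 0.165 FPKM in NS, and Foxc2 had 0.0117 FPKM in knockdown and 0.0581 FPKM in NS. Foxc1 had 0.242 FPKM in knockdown and 0.0716 FPKM in NS, and Vtn had 0.121 FPKM in knockdown and was listed at 0 in NS. Among 4 untested genes with both values above 0, 2 were higher and 2 lower, with 1 past 1.5-fold each way. Of untested loci at 0.1 to 1 FPKM, 17.7% were over 1.5-fold higher and 15.5% over 1.5-fold lower. The chemokine gene Cxcl12 had 3.11 FPKM in knockdown and 2.77 FPKM in NS. The meningeal genes Slc22a6 and Aldh1a2 were at 0.00937 and 0.00783 FPKM in knockdown and listed at 0 in NS, and Dcn had 1.56 FPKM in knockdown and 1.55 FPKM in NS. The part of these cells in the result was not tested.

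Markers of thalamus and eminentia were looked at for the same reason. Of 9 listed, all had a locus and 4 had been tested, all 4 were above 1-fold, and 1 of them, Tcf7l2, was over 1.5-fold higher, with 1.18 FPKM in knockdown and 0.727 FPKM in NS. Of all tested loci, 42.2% were above 1-fold and 2.09% over 1.5-fold higher. The median log2 fold of the 4 was 0.18. Among 4 untested genes with both values above 0, 2 were lower, neither over 1.5-fold, and 2, Gbx2 and Lhx9, were over 1.5-fold higher. Of untested loci at 0.1 to 1 FPKM, 17.7% were over 1.5-fold higher. The mean of Gbx2, 0.0706 FPKM, lies below that range. The summed level of the 9 was 11.3 FPKM in knockdown and 9.66 FPKM in NS, of which Slc17a6, a vesicular glutamate transporter, gave 5.54 FPKM in knockdown and 4.79 FPKM in NS. Olig3 was listed at 0 in both groups, and the part of these cells in the result was not tested.

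**Figure D4:**
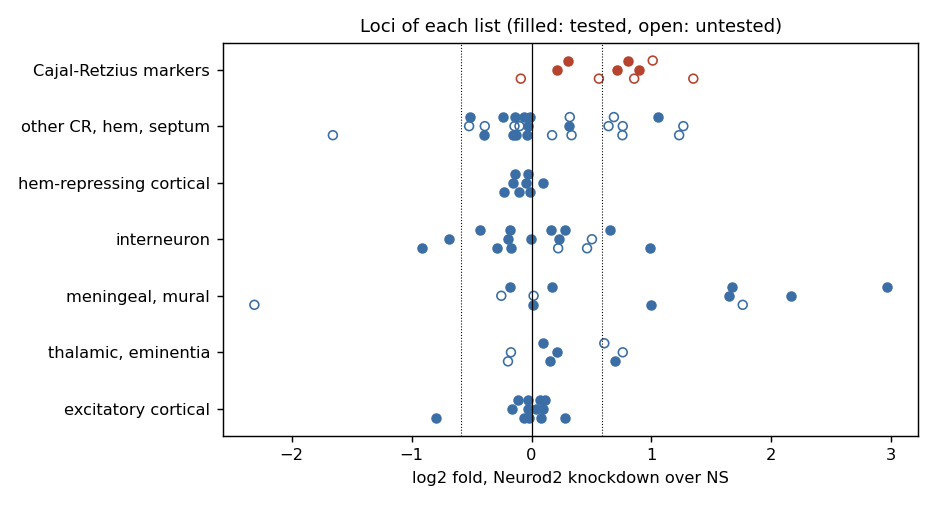
Log2 fold, Neurod2 knockdown over NS, of each locus with both values above 0 in the marker list (red) and 6 of the other lists (blue), filled where the authors tested the locus and open where they did not, spread vertically only to separate points. The list of paralogs is not drawn. Dotted lines mark 1.5-fold, and the meningeal list reaches the highest values, with Col1a1 at 2.96.

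For the 3 markers past 1.5-fold with at least 1 FPKM in both groups, the loci with the nearest log2 fold were looked up among named tested loci within 1.5 times of their mean level. For Calb2 these were Nhlh2 (0.09 away), Sst (0.10 away) and Pif1 (0.15 away) of 1703 candidates, of which 8 were over 1.5-fold higher. For Ndnf they were Gulp1 (0.02 away), 1110015O18Rik (0.03 away) and Pif1 (0.03 away) of 1355 candidates, of which 17 were over 1.5-fold higher. For Nhlh2 they were Ly6g6e (0.02 away), Gabrg1 (0.05 away) and Pif1 (0.06 away) of 1379 candidates, of which 18 were over 1.5-fold higher. Likeness here is in 1 fold between 2 groups only.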

How the data were processed

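RNA-seq of 6 libraries was used. Single-end reads of 50 bp were aligned by the authors to mm10 (TopHat), built into transcripts (Cufflinks) and compared as 2 pooled groups (Cuffdiff). Tool versions were not given in the sources used here. Per locus, the deposited table holds 1 FPKM value per group. It also holds the authors' own log2 fold change, test statistic, p-value and q-value, which are not reported. A spreadsheet had turned many cells into times. Of 13498 tested loci, 4876 were restored by requiring the ratio of both values to match the deposited log2 fold within 2e-05, and 42 were left out; in simulated alterations of 3000 loci, 99.4% came back right, 0.6% stayed open and 0 were wrong. No cell of the 10 markers was altered. Loci were named from GENCODE M21 (GRCm38). Reads behind a value were estimated from the commonest FPKM × kb among loci with 1 transcript of at least 1000 bp, and fold intervals with scipy 1.17.1. The text names all markers, their paralogs (1 is not reported here), Neurod2, Reln, up to 4 tested loci of at least 1 FPKM with the largest log2 fold in each list, defining markers near 0 and nearest loci; others (Col1a1, Col3a1, Postn, Acta2, Tcf7l2, Dlx5, Lhx6, Car10, Eya2, Rspo1, Bmp6, Ttr, Lum, Wnt3a and Gad2) were added after their values were seen. Adarb2, Lamp5 and Htr3a were also added after their values were seen. Markers and lists were chosen with earlier results of these data known. Pseudocounts, filters, thresholds, centring and overlap were varied.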

Additional observations from a re-analysis of the deposited data

How the results depend on the processing

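The count of 6 markers over 1.5-fold higher in knockdown stood under a pseudocount of 0.1 FPKM and an overlap of 0.8. It also stood with a count of every matched row (added after seeing the data). It was 7 with the lower threshold tried or with folds centred on the median of tested loci, which brought in Ebf3. The lower threshold is also passed by more loci in general. On the higher side, 4.09% of tested loci at 1 FPKM or more passed it, against 1.35% at 1.5-fold. Of untested loci at 0.1 to 1 FPKM, 29.6% passed it on that side, against 17.7% at 1.5-fold. The count of markers was 2 with a pseudocount of 1 FPKM (Calb2 and Nhlh2) and 2 at a 2-fold threshold (Lhx5 and Lhx1). It was 3 among markers with a mean of at least 1 FPKM and 3 among tested markers. The median log2 fold of 0.76 was 0.20 with a pseudocount of 1 FPKM, which shrinks low genes by construction, and between 0.70 and 0.81 in the other settings. Of 30 recomputed log2 folds of single markers, 20 stayed within 1.5 times of their value, 10 did not and 0 changed sign. The share of tested loci over 1.5-fold higher was 0.887% at 5 FPKM or more and 2.09% with no filter, and 1.55% where only unaltered cells were used. No paired analysis was possible because the table holds 1 pooled value per group, and for the same reason no library could be left out. Depth limits the 5 untested markers most.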
